A study of Camellia sinensis with 12 samples.

Results

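The stem between the first and the second leaf (sS1) of XYMJ tea plants was compared with the second leaf below the bud (sL2) in the counts of 222 miRNA IDs, out of 650 listed IDs. An ID was tested if its counts over all 12 libraries of the series came to at least 10, and sS1 and sL2 hold 3 of these libraries each. The first leaf (sL1) and the bud (sBud) fill the other 6. All tissues came from shoots of 1 kind of tea plant, Camellia sinensis XYMJ, with no treatment named, and the study describes 3 biological replicates per tissue but not how many plants went into each. The tissue of a library is that of its deposited title and group tag, because the deposited tissue field says Leaf for every library, stems included. Of the 428 IDs that were not tested, none had more than 6 counts summed over sS1 or 7 over sL2.

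Plant miRNAs are short RNAs that guide the cleavage or the translational repression of mRNAs with a nearly complementary site. The conserved families mostly target transcription factors that set organ growth and patterning. In Arabidopsis, miR319 and its TCP targets and miR396 and its GRF targets set cell proliferation in leaves. In the same species, miR166 and the HD-ZIP III factors pattern leaf polarity and vascular tissue, and miR167 and miR160 restrict auxin response factors (ARFs). These roles are background and were not measured here, since neither mRNAs nor targets were analysed.

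The total count of a library was 746562, 586848 and 540019 in sS1 replicates 1, 2 and 3 and 640623, 559217 and 647707 in sL2. Values are given below in CPM, that is counts divided by the summed counts of the tested IDs in a library and by its TMM factor and multiplied by 1000000, in the order of replicates 1, 2 and 3. The TMM factors did not overlap between the tissues, at 0.857, 0.981 and 0.892 in sS1 and 1.03, 1.18 and 1.09 in sL2. Many results that move with the scaling are named as such below, but not every one. In log2(CPM + 1) over the 222 tested IDs, sS1 and sL2 libraries had a median Pearson correlation of 0.843 (0.813 to 0.863). Against this, the correlation was 0.950 (0.938 to 0.963) between sS1 and sL1 libraries and 0.811 (0.788 to 0.844) between the sL1 and sL2 libraries, so the libraries labelled stem were closer to those labelled first leaf than the libraries labelled as leaves were to each other. No miRNA that defines a stem or a leaf was among the lists, so the tissue labels could not be checked by such a marker. Whether labels were exchanged between tissues, such as sS1 and sL1 or sS1 and sL2, was not tested. An exchange of sS1 and sL2 would reverse every direction given between them. Stem, first leaf, second leaf and bud below stand for the libraries labelled so, and every direction rests on these labels. In whole organs, a lower level in fewer cells and a lower level per cell cannot be told apart.

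Between sS1 and sL2, 39 miRNAs were higher in the stem and 40 were higher in the second leaf. The stem held more of 11 csn-miR167 members, of the most abundant csn-miR166 and csn-miR396 members and of 7 csn-miR171 members. The second leaf held more of 14 csn-miR159 members, among them cas-MIR159-2 at 179104 ± 16648 CPM (SD, n = 3) against 4379 ± 1204 CPM in the stem, and of all 8 tested csn-miR319 members. A miRNA counts as called here when its absolute log2 fold change is above 1 and its Benjamini-Hochberg adjusted p in the quasi-likelihood test of edgeR is below 0.05, which held for 79 of 222 tested IDs (35.6%). These were 17.6% of the tested IDs in the direction of the stem and 18% in the direction of the second leaf. By the unadjusted p that the study's methods use, 92 IDs (41.4%) were DEMs, 45 higher in sS1 (20.3%) and 47 lower (21.2%). The libraries of sS1 and sL2 did not overlap in 113 IDs (50.9%), which include 72 of the 79 called IDs. The median log2 fold change, sS1 minus sL2, over all tested IDs was -0.02. With library size as the only scaling, this median moved by -0.26, and 27 IDs were called higher in sS1 and 47 lower. Leaving out 1 of the 6 libraries gave between 59 and 71 called IDs. The abundant cas-MIR166-4 and cas-MIR166-41 lay just past the threshold and lost the call under 5 and 6 of 16 alternative settings.

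**Figure D1:**
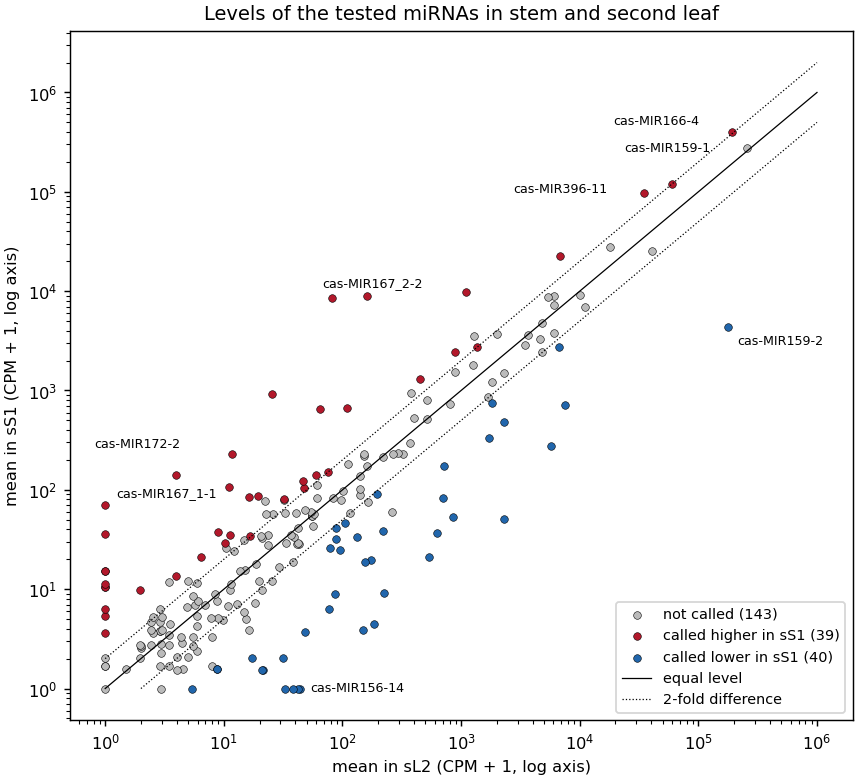
Mean level of each tested miRNA in sL2 (horizontal axis) and sS1 (vertical axis), in CPM + 1 on log axes, with 3 libraries behind each mean. Red points are the 39 miRNAs called higher in sS1, blue points the 40 called lower and grey points the 143 not called. The solid line marks equal levels and the dotted lines a 2-fold difference. cas-MIR159-2 lies far below the line at a high level, while cas-MIR159-1 lies on it.

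The called IDs were spread over the whole range of levels. Of the 36 IDs whose mean count reached 1000 in sS1 or sL2, 17 were called, 9 higher and 8 lower in sS1. From 100 to 1000 counts it was 16 of 34, from 10 to 100 counts 34 of 77, and below 10 counts 12 of 75, where the median standard error of a log2 fold change was 1.17 against 0.23 in the most abundant class. In 24 of the called IDs, every library of a tissue had at most 3 counts, the number that a count of 0 allows. Where that tissue had no count at all, the fold change is given as a bound against 3 counts per library, which is 4.44 CPM on average in sL2 and 5.38 CPM in sS1. Where such a tissue had counts above 0, the ratio of the summed counts is given with its exact 95% interval instead. Bounds and intervals hold for counting error alone, since reads of PCR products do not count separate molecules.

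**Figure D2:**
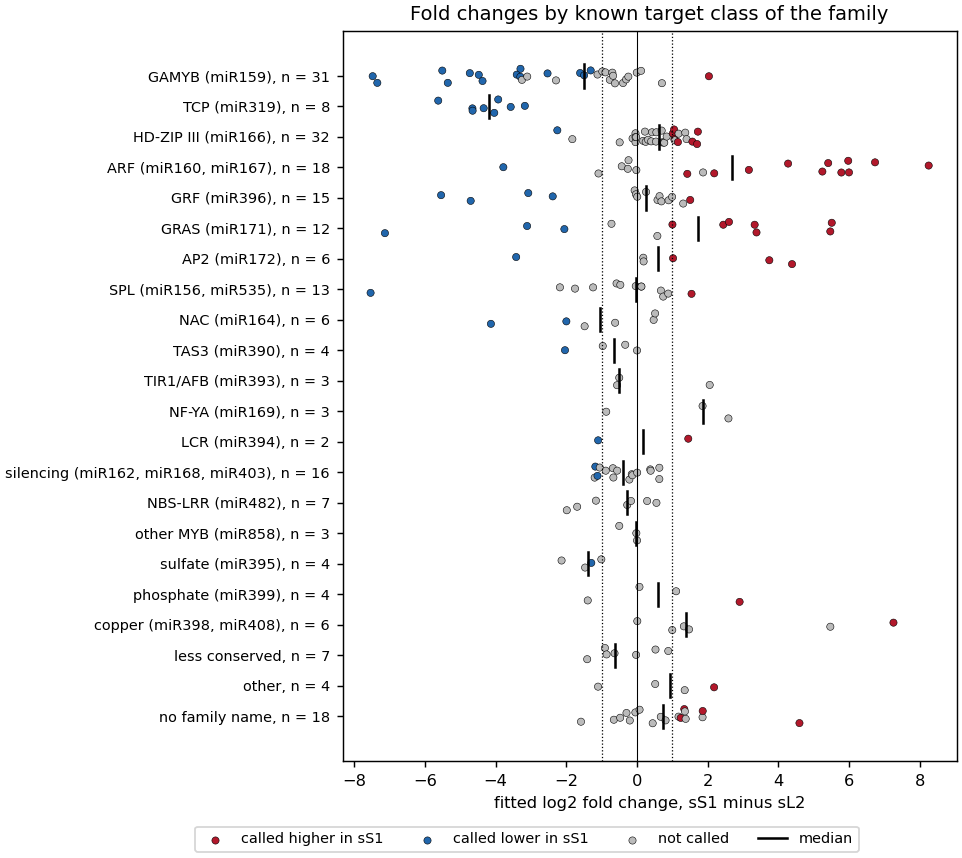
Fitted log2 fold change, sS1 minus sL2, of all 222 tested miRNAs, in a row for each known target class with the families that its tested members come from. Red and blue points are called higher and lower in sS1, grey points are not called, the black bar is the median of the class and dotted lines mark an absolute log2 fold change of 1. All 8 miR319 points are blue and 11 of the 18 ARF points are red, while miR171, miR172, miR396 and miR159 hold points of both colours.

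The csn-miR159 family, whose known targets are MYB factors of the GAMYB type, had 31 tested IDs, of which 14 were called lower in sS1 and 1 higher. Together they were 48.4% of its tested IDs, against 35.6% of all tested IDs. With RLE size factors and with library size alone, 17 were called lower and 0 higher. Its 2 most abundant members behaved differently. cas-MIR159-1 had 267466, 288731 and 271293 CPM in sS1 and 264766, 262175 and 237760.1 CPM in sL2, a log2 fold change of 0.11 (standard error 0.09, edgeR adjusted p = 0.368), and was not called. cas-MIR159-2 had 4987, 5157 and 2992 CPM in sS1 and 187613, 159922 and 189778 CPM in sL2. Every sL2 library lay far above every sS1 library, with a log2 fold change of -5.35 (standard error 0.28, edgeR adjusted p = 3.17e-09). Within the family, cas-MIR159-1 made up 94.9% ± 0.802 of the counts in sS1 (SD, n = 3) and 54.4% ± 2.99 in sL2, and cas-MIR159-2 made up 1.501% ± 0.387 and 38.2% ± 3.04. The sum of the family was lower in sS1 by less than 2-fold, at 290737 ± 12315 CPM against 468373 ± 17603 CPM in sL2, with a log2 fold change of -0.69 (standard error 0.06, edgeR adjusted p = 1.48e-06).

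Less abundant members of csn-miR159 lay on the side of cas-MIR159-2. cas-MIR159-14 had 308, 341 and 179 CPM in sS1 against 3607, 6119 and 7431 CPM in sL2, a log2 fold change of -4.37 (standard error 0.48, edgeR adjusted p = 5.69e-06). For cas-MIR159-15 the levels were 999, 815 and 328 CPM in sS1 and 9204, 5979 and 7495 CPM in sL2, a log2 fold change of -3.40 (standard error 0.40, edgeR adjusted p = 9.78e-06). cas-MIR159-45 was more variable in the second leaf, at 3437, 2708 and 749.7 CPM, but its sS1 libraries at 68.8, 15.6 and 66.4 CPM were all lower, with a log2 fold change of -5.51 (standard error 0.64, edgeR adjusted p = 9.49e-06). cas-MIR159-29 had 6, 5 and 3 counts in sS1 and 136, 112 and 208 in sL2, a log2 fold change of -4.73 (standard error 0.55, edgeR adjusted p = 9.78e-06). In cas-MIR159-38 and cas-MIR159-25 no sS1 library had a count, while sL2 had 28, 40 and 14 counts of the former and 18, 23 and 35 of the latter. The stem level was lower by at least 7.60-fold for cas-MIR159-38 and by at least 6.92-fold for cas-MIR159-25 (edgeR adjusted p = 0.000724 and 0.00117). The bound of cas-MIR159-38 was 5.78-fold without sL2 replicate 2. In the abundant cas-MIR159-24 the difference was smaller, at 3191, 2652 and 2284 CPM in sS1 and 7469, 7059 and 5640.2 CPM in sL2, with a log2 fold change of -1.31 (standard error 0.23, edgeR adjusted p = 0.000503). The member called in the other direction, cas-MIR159-47, had 8, 10 and 4 counts in sS1 and 4, 0 and 2 in sL2 (log2 fold change 2.03, standard error 0.77, edgeR adjusted p = 0.0478), and lost the call with RLE size factors, with library size alone and with any of 4 of the 6 libraries left out. Over the 31 IDs the median log2 fold change was -1.5, against -0.02 over all tested IDs, or -0.98 with 7 IDs set to their bounds, and 28 of the 31 had a negative value.

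**Figure D3:**
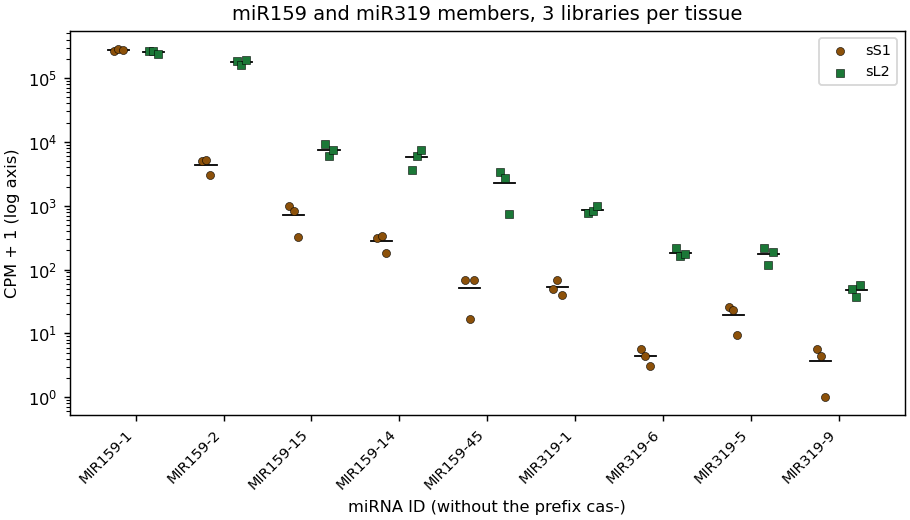
Levels of 5 csn-miR159 and 4 csn-miR319 members in CPM + 1 on a log axis, with a point for each of the 3 sS1 libraries (brown circles) and the 3 sL2 libraries (green squares) and a bar at their mean. The tissues lie side by side for cas-MIR159-1 and far apart for the other members, with sL2 above sS1 in each library.

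The csn-miR319 family, known to target TCP factors, was lower in the stem in all 8 tested IDs of 9 listed. Of all tested IDs, 18% were called lower. The most abundant member, cas-MIR319-1, had 48.5, 67.8 and 39.4 CPM in sS1 and 772, 829 and 976 CPM in sL2, a log2 fold change of -4.04 (standard error 0.37, edgeR adjusted p = 1.33e-06). cas-MIR319-6 had 3, 2 and 1 counts in sS1 against 145, 107 and 121 in sL2. The level in sL2 was 52.0 times (counting interval 23.7 to 143) that in sS1 (edgeR adjusted p = 2.11e-06). cas-MIR319-5 had 25.01, 22.6 and 8.30 CPM in sS1 and 214, 118 and 186 CPM in sL2, with a log2 fold change of -3.17 (standard error 0.51, edgeR adjusted p = 0.000204). The libraries of the tissues did not overlap in any of the 8, as was the case in 50.9% of all tested IDs. cas-MIR319-2 bears the family and member number of a miRNA that the study examined further, a match by number and not by sequence. It was counted 2, 0 and 0 times in sS1 and 10, 10 and 13 times in sL2, a level 13.8 times (counting interval 3.53 to 119) that in sS1 (edgeR adjusted p = 0.0153). It was not called with DESeq2, at the smallest depth or without sS1 replicate 3, and filterByExpr left it out of the test. Summed, the family had 89.1, 97.3 and 49.8 CPM in sS1 and 1317, 1201 and 1455 CPM in sL2, a log2 fold change of -4.06 (standard error 0.36, edgeR adjusted p = 1.68e-06). The median over the 8 IDs was -4.19 as fitted, and -2.52 when 6 IDs with at most 3 counts in every sS1 library were set to their bounds. With 1 library left out, 6 or 7 of the 8 were called. The rare cas-MIR319-7 had no count in sS1 and made up 0.229, 0.377 and 0.390% of the csn-miR319 counts in sL2. It was not called or not tested under at least 1 alternative. Mature miR159 and miR319 are closely related in sequence in plants, and the alignment allowed up to 2 mismatches, so reads of one family counted on the other cannot be told apart from the counts.

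The csn-miR167 family, known to target ARFs of the ARF6 and ARF8 type, was higher in the stem in 11 of its 13 tested IDs, lower in 1 and not called in 1. Thus 92.3% of its tested IDs were called, against 35.6% of all tested IDs. Of the 11, 1 (cas-MIR167_1-14) never exceeded 3 counts in a library of sS1 or sL2. Its most abundant members in the stem belonged to the subfamily MIR167_2. cas-MIR167_2-1 had 10210.1, 8303 and 11227 CPM in sS1 and 1412, 926 and 977 CPM in sL2, a log2 fold change of 3.17 (standard error 0.30, edgeR adjusted p = 1.75e-06). cas-MIR167_2-3 stood at a similar level in the stem, at 7637, 7203 and 11738 CPM, but at 217, 113 and 152 CPM in sL2, a log2 fold change of 5.78 (standard error 0.31, edgeR adjusted p = 3.17e-09). cas-MIR167_2-2 had 6195, 7262 and 12176 CPM in sS1 and 115, 84.6 and 41.2 CPM in sL2, a log2 fold change of 6.73 (standard error 0.41, edgeR adjusted p = 1.04e-08). These levels did not overlap between the tissues in any of the 3 miRNAs, as was the case in 50.9% of all tested IDs. The same direction held for cas-MIR167_2-7, at 686, 1008 and 1086 CPM in sS1 and 16.6, 36.2 and 19.9 CPM in sL2 (log2 fold change 5.24, standard error 0.37, edgeR adjusted p = 5.72e-08). The makeup of the family also differed between the tissues. cas-MIR167_2-1 held 35.3% ± 5.09 of the csn-miR167 counts in sS1 (SD, n = 3) and 72.6% ± 9.22 in sL2, while cas-MIR167_2-2 held 29.3% ± 4.33 and 5.08% ± 1.57.

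In the subfamily MIR167_1, cas-MIR167_1-1 had 36, 29 and 50 counts in sS1 and no count in any sL2 library. Its level in sS1 was higher by at least 15.8-fold (edgeR adjusted p = 5.69e-06), or 12.02-fold without sS1 replicate 3. cas-MIR167_1-2 had 28.1, 33.0 and 49.8 CPM in sS1 and 6.03, 12.1 and 5.68 CPM in sL2, a log2 fold change of 2.18 (standard error 0.43, edgeR adjusted p = 0.00115). cas-MIR167_1-6 had 122, 174 and 68.5 CPM in sS1 and 57.3, 57.4 and 21.3 CPM in sL2, a smaller difference with a log2 fold change of 1.42 (standard error 0.45, edgeR adjusted p = 0.0225), and was not called with library size alone or without sL2 replicate 3, sS1 replicate 1 or sS1 replicate 2. cas-MIR167_1-8 was called in the other direction, but its sL2 counts were 0, 137 and 16 against 1, 6 and 2 in sS1, and it lost the call without sL2 replicate 2 or any single sS1 library. As a sum, the family had 25060.2, 24192 and 36572 CPM in sS1 and 1827, 1494 and 1244 CPM in sL2. The log2 fold change was 4.23 (standard error 0.23, edgeR adjusted p = 2.39e-08). The other ARF-targeting family, csn-miR160, had 5 tested IDs, none of them called, while 35.6% of all tested IDs were. Its sum had 208, 299 and 206 CPM in sS1 and 253, 219 and 274 CPM in sL2, with a log2 fold change of -0.07 and a standard error of 0.30.

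**Figure D4:**
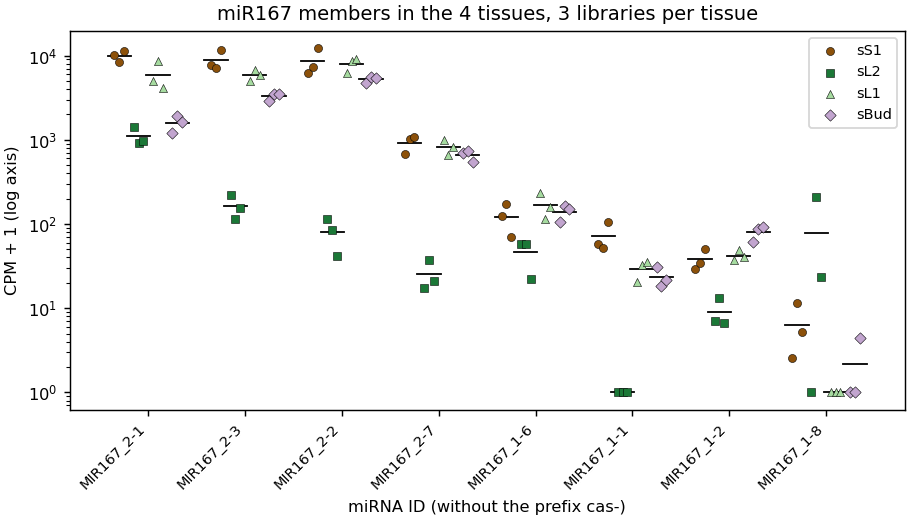
Levels of 8 csn-miR167 members in CPM + 1 on a log axis in sS1, sL2, sL1 and sBud, with a point for each of 3 libraries per tissue and a bar at their mean. The sL2 squares lie below the points of the other 3 tissues for 6 of the members. For cas-MIR167_2-1, sL2 and sBud overlap, and for cas-MIR167_1-8, 2 of the 3 sL2 libraries lie above the other tissues and 1 has no count.

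The csn-miR166 family, known to target the HD-ZIP III factors, took the largest share of the stem libraries. Summed over its members it had 55.9, 47.1 and 50.5% of the counts in sS1 and 32.1, 29.1 and 32.5% in sL2. cas-MIR166-4, the miRNA with the most counts in the stem, had 472809.9, 323289 and 404522 CPM in sS1 and 209643, 167669 and 203103 CPM in sL2, a log2 fold change of 1.05 (standard error 0.17, edgeR adjusted p = 0.000165). cas-MIR166-41 had 130637, 114417 and 116633 CPM in sS1 and 67031, 49129 and 63199 CPM in sL2, with a log2 fold change of 1.01 (standard error 0.15, edgeR adjusted p = 8.61e-05). Both lay just past the threshold of 1, and with library size as the only scaling their log2 fold changes were 0.77 and 0.74. Neither was called without sL2 replicate 2 or without sS1 replicate 1, although the libraries of the tissues did not overlap. cas-MIR166-2 differed more, at 23806, 18756 and 24512 CPM in sS1 and 5686, 5872 and 8775 CPM in sL2, with a log2 fold change of 1.72 (standard error 0.22, edgeR adjusted p = 2.07e-05). In contrast, cas-MIR166-22 had 10360.2, 9821 and 7532 CPM in sS1 and 13644, 8703 and 7899 CPM in sL2, so that the tissues overlapped, and its log2 fold change was -0.13 with a standard error of 0.22. The single member called lower in sS1 was cas-MIR166-32, at 456, 580.4 and 409 CPM in sS1 and 1773, 2933 and 2201 CPM in sL2 (log2 fold change -2.26, standard error 0.28, edgeR adjusted p = 1.90e-05). Of 32 tested IDs, 7 were called higher and 1 lower in sS1, with a median log2 fold change of 0.62. This is 25% of the family, less than the 35.6% called over all tested IDs. The 7 fell to 3 with library size alone, to 4 with RLE size factors, and to 2 without sL2 replicate 2 or without sS1 replicate 1. The sum of the family had a log2 fold change of 0.99 (standard error 0.14, edgeR adjusted p = 0.000134), just under the threshold.

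Of the csn-miR396 family, known to target growth regulating factors (GRFs), the dominant member was higher in the stem and 4 of its minor members were higher in the second leaf. cas-MIR396-11 had 90914, 92039.5 and 111902 CPM in sS1 and 38299, 34385 and 31176 CPM in sL2, a log2 fold change of 1.51 (standard error 0.29, edgeR adjusted p = 0.000848). Every sS1 library lay above every sL2 library. It made up 90.2% ± 0.51 of the csn-miR396 counts in sS1 (SD, n = 3) and 79.1% ± 0.932 in sL2. cas-MIR396-21 lay the other way, at 375, 339 and 269.9 CPM in sS1 and 2062, 1711 and 1373 CPM in sL2 (log2 fold change -2.39, standard error 0.58, edgeR adjusted p = 0.00467), and so did cas-MIR396-13, with 8, 13 and 9 counts in sS1 and 99, 121 and 88 in sL2 (log2 fold change -3.08, standard error 0.41, edgeR adjusted p = 3.36e-05). The remaining ones, cas-MIR396-12 and cas-MIR396-19, had most of their counts in sL2 replicate 2. cas-MIR396-12 had 0, 239 and 58 counts in sL2 and 0, 5 and 0 in sS1, and cas-MIR396-19 had 4, 949 and 111 in sL2 and 12, 11 and 11 in sS1. In both, sL2 replicate 1 lay at or below the stem, and neither was called without sL2 replicate 2, when 2 of the 4 remained. A further 10 of the 15 tested IDs were not called, so that 33.3% were called, near the 35.6% of all tested IDs. Among those not called was cas-MIR396-3, at 8404, 8344 and 9612 CPM in sS1 and 6295, 5050.0 and 4998 CPM in sL2. The family sum was 101298, 102287 and 123341 CPM in sS1 and 48296, 44043 and 39018 CPM in sL2, a log2 fold change of 1.32 (standard error 0.30, edgeR adjusted p = 0.00387).

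The csn-miR171 family, known to target GRAS factors of the HAM type, was split between the tissues, with 7 of 12 tested IDs called higher and 3 lower in sS1. These were 83.3% of its tested IDs, against 35.6% of all tested IDs. The most abundant member, cas-MIR171_2-8, had 2692, 2865 and 2576 CPM in sS1 and 1347, 1159.8 and 1553 CPM in sL2. Its log2 fold change (standard error 0.21, edgeR adjusted p = 0.0014) was barely above 1 and was 0.73 with library size as the only scaling, and the call was also lost without sL2 replicate 2 or sS1 replicate 1. cas-MIR171_2-6 had 727, 479.6 and 737 CPM in sS1 and 30.2, 54.4 and 108 CPM in sL2, a log2 fold change of 3.33 (standard error 0.47, edgeR adjusted p = 5.96e-05), and cas-MIR171_2-1 had 611, 761 and 617 CPM and 107, 118 and 102 CPM, a log2 fold change of 2.60 (standard error 0.24, edgeR adjusted p = 1.33e-06). In cas-MIR171_2-5 the sS1 counts were 44, 91 and 95 and the sL2 counts 3, 1 and 2, a level 45.8 times (counting interval 20.7 to 126) that in sL2 (edgeR adjusted p = 2.11e-06). cas-MIR171_1-17 had 50, 66 and 60 counts in sS1 and 15, 3 and 2 in sL2, with a log2 fold change of 3.38 (standard error 0.65, edgeR adjusted p = 0.000848). On the side of the second leaf, cas-MIR171_2-14 had 8, 34 and 23 counts in sL2 and none in sS1, a difference of at least 5.96-fold (edgeR adjusted p = 0.00129), or 4.16-fold without sL2 replicate 2. cas-MIR171_2-2 had 90.7, 79.9 and 72.7 CPM in sS1 and 569, 683 and 857.7 CPM in sL2 (log2 fold change -3.11, standard error 0.45, edgeR adjusted p = 6.67e-05) and cas-MIR171_2-9 had 164.2, 174 and 181 CPM and 593, 629.7 and 934 CPM (log2 fold change -2.06, standard error 0.26, edgeR adjusted p = 2.13e-05). In none of these named csn-miR171 members did the tissues overlap, nor did they in 50.9% of all tested IDs. The sum of the family had 4862 ± 142 CPM in sS1 (SD, n = 3) and 3178 ± 583 CPM in sL2, a log2 fold change of 0.61 (standard error 0.18, edgeR adjusted p = 0.0163) below the threshold.

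In the pathway of developmental phase, miR156 restricts SPL factors and miR172 restricts AP2-like factors. The csn-miR172 family was led by different members in the tissues. Among the 6 tested csn-miR172 IDs, cas-MIR172-2 had 242, 287 and 158 CPM in sS1 and 4.53, 7.55 and 19.9 CPM in sL2, a log2 fold change of 4.39 (standard error 0.48, edgeR adjusted p = 5.69e-06). cas-MIR172-12 had 7.82, 1.74 and 14.5 CPM in sS1 and 95.04, 58.9 and 104 CPM in sL2, a log2 fold change of -3.42 (standard error 0.61, edgeR adjusted p = 0.000505). Of the csn-miR172 counts, cas-MIR172-2 held 57.5% ± 15.1 in sS1 (SD, n = 3) and 5.83% ± 3.19 in sL2, and cas-MIR172-12 held 2.07% ± 1.73 and 49.0% ± 3.85. Another member, cas-MIR172-6, was called higher in sS1 at a log2 fold change of 1.02, and cas-MIR172-1 was called with 4, 1 and 0 counts in sS1 and none in sL2. In all, 4 of the 6 were called, 3 of them higher in sS1 (66.7% called, against 35.6% of all tested IDs). Without sL2 replicate 2 or sS1 replicate 1, and with library size alone, 1 of the 3 called higher remained. The family sum was higher in sS1, with a log2 fold change of 1.17 (standard error 0.27, edgeR adjusted p = 0.00387), or 0.91 with library size alone.

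Of 13 tested IDs of csn-miR156 and csn-miR535, which share SPL factors as known targets, 1 was called in each direction, or 15.4% against 35.6% of all tested IDs. cas-MIR156-14 was not counted in any sS1 library and had 10, 51 and 25 counts in sL2, so that its stem level was lower by at least 7.91-fold (edgeR adjusted p = 0.000395), or 4.70-fold without sL2 replicate 2. cas-MIR535-1 had 1349, 1324 and 1268 CPM in sS1 and 558, 419.8 and 375 CPM in sL2, a log2 fold change of 1.54 (standard error 0.36, edgeR adjusted p = 0.00335). cas-MIR535-7, the most abundant ID of the list, had 1373, 1183 and 1082 CPM in sS1 and 1255, 2098 and 2083 CPM in sL2, where the libraries overlapped, with a log2 fold change of -0.58 (standard error 0.24, edgeR adjusted p = 0.0673). The sums of csn-miR156 and csn-miR535 had log2 fold changes of 0.12 (standard error 0.29) and 0.09 (standard error 0.24), and both changed sign with RLE size factors and with library size alone.

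Of the csn-miR164 family, which targets NAC factors of the CUC type at organ boundaries, 2 of 6 tested IDs were called (33.3%, near the 35.6% of all tested IDs), both lower in sS1. cas-MIR164-5 had 39.1, 27.8 and 39.4 CPM in sS1 and 289.7, 692 and 895 CPM in sL2, a log2 fold change of -4.13 (standard error 0.53, edgeR adjusted p = 2.41e-05). The call of cas-MIR164_2-4 was less stable, with 9, 8 and 21 counts in sS1 and 54, 106 and 29 in sL2, and 1 of the 2 remained without sL2 replicate 2, sS1 replicate 1 or sS1 replicate 2. The most abundant, cas-MIR164_2-1, had 1057, 1722 and 1679.5 CPM in sS1 and 1798, 2261 and 2789 CPM in sL2, with a log2 fold change of -0.62 (standard error 0.25, edgeR adjusted p = 0.0601). Of csn-miR390, which triggers small RNAs from TAS3 that act on ARFs, 1 of 4 tested IDs was called (25%, against 35.6% of all tested IDs). This was cas-MIR390-4, at 14.1, 33.0 and 49.8 CPM in sS1 and 93.5, 175 and 126 CPM in sL2 (log2 fold change -2.04, standard error 0.51, edgeR adjusted p = 0.00545). The abundant cas-MIR390-1 lay close to the threshold, at 863, 959 and 756 CPM in sS1 and 1518, 2055 and 1477 CPM in sL2. Its log2 fold change was -0.97 (standard error 0.21, edgeR adjusted p = 0.0019), and it passed the threshold at -1.11 with RLE size factors and at -1.25 with library size alone.

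Both tested IDs of csn-miR394, known to target the F-box gene LCR, were called, in opposite directions. cas-MIR394-1 had 2226, 2711 and 2406 CPM in sS1 and 1077, 732 and 878 CPM in sL2, a log2 fold change of 1.45 (standard error 0.21, edgeR adjusted p = 7.66e-05), and carried the family sum, whose log2 fold change was 1.34. cas-MIR394-2 had 27, 31 and 12 counts in sS1 and 68, 64 and 44 in sL2, with a log2 fold change of -1.10 (standard error 0.42, edgeR adjusted p = 0.0495), and lost the call without any of 5 of the 6 libraries. None of the 3 tested IDs of csn-miR393, which targets the auxin receptors TIR1 and AFB, was called, and the most abundant, cas-MIR393-5, had 23.5, 40.0 and 18.7 CPM in sS1 and 40.7, 30.2 and 51.1 CPM in sL2. Likewise none of 3 was called in csn-miR169, which targets NF-YA factors, where the most abundant ID, cas-MIR169_1-2, had only 2, 1 and 1 counts in sS1 and 7, 2 and 0 in sL2. Over all tested IDs, 35.6% were called.

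Some miRNAs feed back on the silencing machinery. Of 16 tested IDs of csn-miR162, csn-miR168 and csn-miR403, whose known targets are DCL1, AGO1 and AGO2, 2 were called (12.5%, against 35.6% of all tested IDs) and both were lower in sS1. These were cas-MIR162_1-3, with 79, 47 and 31 counts in sS1 and 170, 86 and 142 in sL2 (log2 fold change -1.12, standard error 0.35, edgeR adjusted p = 0.0195), and cas-MIR162_2-3, with 37, 32 and 11 and 82, 55 and 74 (log2 fold change -1.18, standard error 0.39, edgeR adjusted p = 0.0289). Neither was called without sL2 replicate 1 or without sS1 replicate 3. The abundant members differed by less than 2-fold. cas-MIR162_2-2 had 30280.2, 25676 and 27414 CPM in sS1 and 21269.7, 14184 and 18377 CPM in sL2, a log2 fold change of 0.63 (standard error 0.19, edgeR adjusted p = 0.0189). cas-MIR168-6 lay the other way, at 6266, 6596 and 7767 CPM in sS1 and 10664, 9889 and 12537 CPM in sL2 (log2 fold change -0.68, standard error 0.18, edgeR adjusted p = 0.00756). In both, the libraries did not overlap. The rare cas-MIR162_1-2 had 1, 1 and 0 counts in sS1 and 2, 3 and 1 in sL2, all within the limit of 3 counts, so no fold change is given.

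None of the 7 tested IDs of csn-miR482, known to target disease resistance genes of the NBS-LRR type, was called, while 35.6% of all tested IDs were. cas-MIR482-14 had 9458, 8734 and 8325 CPM in sS1 and 5413, 6332 and 6374 CPM in sL2, with a log2 fold change of 0.55 (standard error 0.16, edgeR adjusted p = 0.0145), a difference without overlap but below 2-fold. Nor was any of the 3 tested IDs of csn-miR858 called, which targets MYB factors of the flavonoid pathway, the source of tea catechins. cas-MIR858-4 had 2559, 4817 and 3479 CPM in sS1 and 5919.7, 2033 and 3052 CPM in sL2. Its log2 fold change was -0.02, with a standard error of 0.34. The replicates spread widely in both tissues, and sL2 held both the highest and the lowest level.

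Of the families that respond to nutrients, csn-miR395 had 1 of 4 tested IDs called, csn-miR399 1 of 4 and csn-miR398 with csn-miR408 1 of 6, against 35.6% of all tested IDs. All 4 tested IDs of csn-miR395, which targets sulfate assimilation and transport genes, had a negative log2 fold change, from -1.01 to -2.13. The called ID was cas-MIR395-5, at 643, 617 and 965 CPM in sS1 and 2245, 1826 and 1383 CPM in sL2 (log2 fold change -1.29, standard error 0.47, edgeR adjusted p = 0.0415), and it was not called without sL2 replicate 1, sL2 replicate 2 or any single sS1 library. With RLE size factors or library size alone, 3 of the 4 were called. Of csn-miR399, which targets the phosphate regulator PHO2, cas-MIR399-2 was called with 5, 6 and 4 counts in sS1 and 1, 0 and 1 in sL2, a level 8.97 times (counting interval 2.09 to 80.8) that in sL2 (edgeR adjusted p = 0.00985). The most abundant ID of this family, cas-MIR399-1, had 13, 21 and 16 counts in sS1 and 13, 3 and 12 in sL2, with a log2 fold change of 1.11 (standard error 0.75, edgeR adjusted p = 0.286). Among the copper-related csn-miR398 and csn-miR408, which target copper proteins, 1 of 6 tested IDs was called. The abundant cas-MIR398_2-1 had 4254, 1960.1 and 4491 CPM in sS1 and 783, 629.7 and 2447 CPM in sL2. Its sL2 replicate 3 lay above sS1 replicate 2, and its log2 fold change was 1.47 (standard error 0.60, edgeR adjusted p = 0.0673). cas-MIR398_2-1 passed both thresholds under 6 of 17 alternatives, which were limma-voom, no filter on low counts, the replicate block, the fit in which only the 6 libraries of both tissues entered (edgeR adjusted p = 0.0417), and the fits without sL2 replicate 3 or sS1 replicate 2.

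The called ID of the copper-related families, cas-MIR398-3, had 60 counts in sS1 replicate 2 and none in the other 5 libraries. It is 1 of 7 called IDs whose libraries overlapped between the tissues. The others are cas-MIR396-12, cas-MIR396-19, cas-MIR167_1-8, cas-MIR164_2-4 and cas-MIR172-1, as given with their families, and cas-undef-62, with 5, 0 and 4 counts in sS1 and none in sL2. They were singled out after their values were seen, as were other IDs given here that are outside the rule for named miRNAs.

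IDs without a family name made up between 2.03% and 2.86% of the counts in the sS1 libraries and between 4.23% and 4.73% in sL2. The most abundant of them was cas-undef-156, at 22934, 28156 and 25585 CPM in sS1 and 43200.1, 35036 and 42572 CPM in sL2. Its libraries did not overlap, and its log2 fold change was -0.66 (standard error 0.15, edgeR adjusted p = 0.00232), below the threshold. Of the 18 tested IDs without a family name, 4 were called (22.2%, against 35.6% of all tested IDs), and all 4 were higher in sS1. With library size alone 1 was called, and with a library left out between 1 and 3. The highest level among them was that of cas-undef-178, at 138, 196 and 85.1 CPM in sS1 and 69.4, 28.7 and 79.5 CPM in sL2. None of the 7 tested IDs of families numbered above 1000 was called, but with RLE size factors or library size alone 1 was called lower in sS1. The most abundant of the 7, cas-MIR6149-1, had 3291, 3955 and 3880.2 CPM in sS1 and 2747, 1495 and 1785 CPM in sL2, with a log2 fold change of 0.88 (standard error 0.27, edgeR adjusted p = 0.0192). In the families outside the lists, 1 of 4 tested IDs (25%) was called. cas-MIR530-1 had 46, 72 and 28 counts in sS1 and 14, 5 and 19 in sL2 (log2 fold change 2.18, standard error 0.55, edgeR adjusted p = 0.00571), whereas cas-MIR477-2, with 46, 83 and 4 counts in sS1 and 128, 83 and 118 in sL2, overlapped between the tissues.

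Counts were also summed per family, which leaves out how reads were divided among near-identical members. Of 34 families tested in this way, 8 (23.5%) were called, 5 higher and 3 lower in sS1, and the libraries did not overlap in 18 (52.9%). Higher in sS1 were csn-miR167, csn-miR530, csn-miR394, csn-miR396 and csn-miR172, and lower were csn-miR319, csn-miR395 and csn-miR1511. The sum of csn-miR530 had a log2 fold change of 2.18 (standard error 0.55, edgeR adjusted p = 0.00795). That of csn-miR395 was -1.36 (standard error 0.47, edgeR adjusted p = 0.0341) and that of csn-miR1511, with 7, 4 and 3 counts in sS1 and 17, 10 and 16 in sL2, was -1.35 (standard error 0.41, edgeR adjusted p = 0.0215). Without sL2 replicate 1 the number lower in sS1 fell from 3 to 1, as csn-miR395 and csn-miR1511 lost the call. The sums of csn-miR395 and csn-miR1511 each lost the call under 4 of 11 alternatives, and that of csn-miR172 under 1. Called IDs of both directions occurred within 7 families, csn-miR159, csn-miR166, csn-miR167, csn-miR171, csn-miR172, csn-miR394 and csn-miR396.

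**Figure D5:**
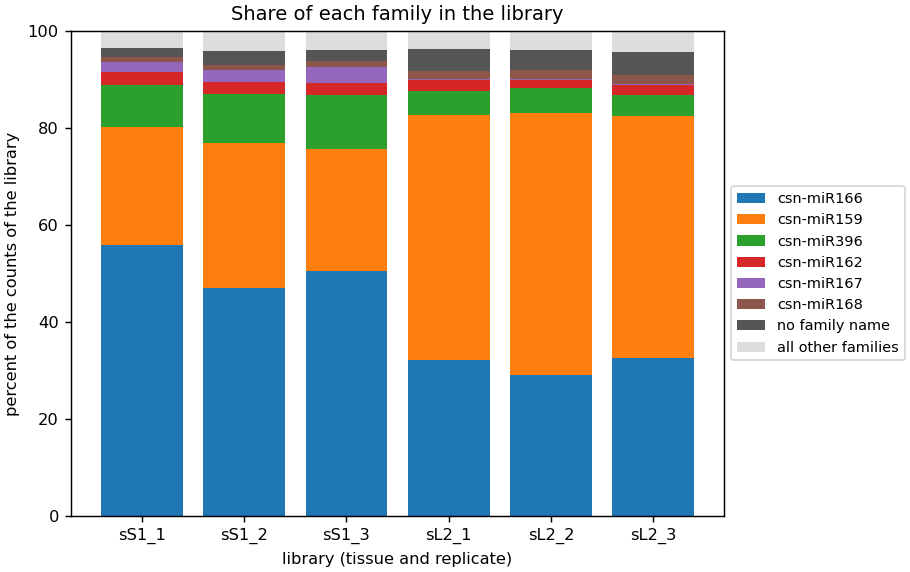
Share of each family in the counts of the 3 sS1 and 3 sL2 libraries, in percent of the total count of a library. The csn-miR166 band covers between 47.1% and 55.9% of an sS1 library and between 29.1% and 32.5% of an sL2 library, and csn-miR159 takes the larger share in sL2. The csn-miR167 and csn-miR396 bands are wider in sS1.

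In the shares of a library, csn-miR159 took 24.3, 29.9 and 25.3% in sS1 and 50.5, 54.0 and 50.1% in sL2. csn-miR396 took 8.68, 10.03 and 11% in sS1 and 4.997, 5.22 and 4.24% in sL2, and csn-miR167 took 2.15, 2.37 and 3.26% in sS1 and 0.189, 0.177 and 0.135% in sL2. The 5 miRNAs with the most counts held between 83.0% and 85.0% of an sS1 library and between 79.8% and 80.1% of an sL2 library. Shares of a library are bound to sum to 100%, so a larger share of one family lowers those of the others.

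Set beside the first leaf and the bud, the called miRNAs mostly had their extreme level in the second leaf. Of the 39 called higher in sS1, sL2 had the lowest of the 4 tissue means in 37, and sS1 had the highest in 20. Of the 40 called lower in sS1, sL2 had the highest mean in 35, and sS1 had the lowest in 17. These numbers describe IDs chosen by the difference between sS1 and sL2 and carry no test. cas-MIR159-2 had 2623, 4019.8 and 3903 CPM in sL1 and 28779.6, 39536 and 23204 CPM in sBud, so that the first leaf lay near the stem and the bud between the stem and the second leaf. cas-MIR319-1 had 14.4, 37.6 and 42.6 CPM in sL1 and 282, 291 and 339 CPM in sBud, in the same order. For cas-MIR396-11 the stem had the highest mean, with 42661, 94162 and 38544 CPM in sL1 and 10873, 16814 and 11261 CPM in sBud, where the bud lay below the second leaf and sL1 replicate 2 lay above sS1 replicates 1 and 2. cas-MIR167_2-1 likewise had its highest mean in the stem, at 4958, 8609 and 4175 CPM in sL1 and 1213, 1938 and 1607 CPM in sBud, although sL1 replicate 2 lay above sS1 replicate 2. cas-MIR156-14, with no count in the stem, was highest in the bud, with 48, 50 and 45 counts there and 2, 0 and 0 in sL1.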

How the data were processed

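Small RNAs of 4 tissues were sequenced in 12 libraries. According to the study's methods, the authors trimmed the reads, kept those of at least 20 nt, set aside rRNA, tRNA, snRNA and snoRNA reads and matched the remaining reads, allowing up to 2 mismatches, with known plant miRNAs (miRBase). The deposited values are raw counts per miRNA ID and library, and the rule for reads that match several IDs is not given in the sources used here. No sequences of the IDs were available to this work, so none is shown. Replicate files differed beyond sampling noise (chi-square divided by its degrees of freedom, 55.0 to 107).

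IDs whose counts over the 12 libraries reached 10 were analysed with edgeR 4.0.16 (glmQLFit and glmQLFTest, TMM, 1 fit of 12 libraries with a term per tissue, contrast sS1 minus sL2) in R 4.3.3. Standard errors are the log2 fold change over the square root of F. Counts summed per family, with subfamilies joined, were tested in the same way with the same library factors. Target classes follow the family number. Named miRNAs are 46 IDs: per direction the 8 with the largest fitted change among called IDs without overlap and with a mean count of 10 or more in the higher one, and the 4 such IDs with at least 1000 counts, the 5 most abundant IDs, the most abundant ID of each class and IDs that match members examined in the study. These matches are by family and member number alone. Members and lists were chosen with earlier results of these data known. Alternatives were limma-voom (limma 3.58.1), DESeq2 1.42.0, RLE or library-size scaling, removal of the 5 most abundant IDs, no filter, filterByExpr, the 6 libraries alone, a replicate block, subfamilies kept apart and each library left out. The procedure was tested on simulated counts, with changes in either direction planted in sS1 at randomly drawn IDs. These need not cover the composition of the libraries here.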

Additional observations from a re-analysis of the deposited data

How the results depend on the processing

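Between 66 and 80 IDs were called under the alternatives to the test, scaling, filter, depth and samples, and 43 of the 79 were both tested and called under each of the planned ones, 17 higher and 26 lower in sS1. DEMs by the unadjusted p numbered 73 to 94 under these, and 77 to 91 with 1 library left out. Called IDs with 1 library left out numbered 59 to 71, with the lowest number without sL2 replicate 2 and without sS1 replicate 1. Library size alone gave 27 called higher and 47 lower in sS1 and 107 IDs without overlap, DESeq2 27 and 40, and RLE size factors 33 and 47. DESeq2 gave no adjusted p for 27 IDs, which stay out of its counts. Per ID, the log2 fold change shifted by a median of -0.26 with library size alone, -0.14 with DESeq2 and -0.13 with RLE size factors. The family sums called lower in sS1 numbered 1 to 3 with a library left out, with 1 of 3 left without sL2 replicate 1, and all family sums called numbered 7 to 10.

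Of the 46 named miRNAs, 37 kept their call, or its absence, under each alternative that could test them. A further 5 lost the call under at least 1 alternative, 4 gained it and 0 were called in opposite directions. IDs without a call could change sign among the 37, as cas-MIR159-1 did, from 0.11 to -0.16 in the lowest alternative. Named families alone and libraries drawn down to the smallest total, both chosen after seeing the data, gave 77 and 68 called IDs. The counts showed no pairing by replicate number, though they cannot tell whether same-numbered samples came from the same plants. Same-numbered sS1 and sL2 libraries had correlations of their deviations of 0.01, 0.003 and 0.06. Not each library correlated best with its own number. With the replicate block, 75 IDs were called, 70 of them shared with the fit without it. Depth limits the IDs below 10 counts, where 12 of 75 were called.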
